A study of Homo sapiens with 19 samples.

Results

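The miR-30 family was followed through Caco-2 cells and the RNA that they released. Members were taken by name: the 5 mature miRNAs hsa-miR-30a-5p, hsa-miR-30b-5p, hsa-miR-30c-5p, hsa-miR-30d-5p and hsa-miR-30e-5p (hsa, for human, is left out below), of 1043 human miRNAs listed in the deposited counts. All 5 were found in at least 1 library, and 3 (miR-30b-5p, miR-30c-5p and miR-30d-5p) passed the filter on low counts and could be tested. Caco-2 is an established line from a human colorectal carcinoma that forms a gut-like epithelium. All groups came from wild-type cells grown in medium with 20% fetal bovine serum to 80% confluence and then held for 24 h without serum and antibiotics. The groups were cell lysate (3 libraries), total extracellular RNA from cleared medium (total exRNA, 4), the pellet of a spin at 40000 xg (P40, 4), the pellet of the next spin at 100000 xg (P100, 4) and the supernatant of that spin (S100, 4). The nucleic acids of S100 and total exRNA were precipitated and then taken into Trizol, whereas lysate, P40 and P100 went directly into Trizol. Fraction and RNA preparation therefore cannot be told apart in comparisons across those 2 sets. The labels do not say whether replicates were separate cultures. The p-values below therefore reflect the spread among these libraries alone, which may be technical.

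The miR-30 family is named for a shared seed, the bases near the 5′ end through which a miRNA pairs with its targets, so its members are expected to recognise overlapping sets of messenger RNAs. The family is abundant in many differentiated epithelia, and its known targets include regulators of the epithelial to mesenchymal transition such as SNAI1. Each hairpin precursor can yield a 5p arm and a 3p arm. The family members are the 5p arms, while the 3p arms carry other seeds.

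The mature sequences show what the members share and how little separates some of them. They are RefSeq entries on GRCh38.p14, and the capitals mark the seed (bases 2 to 8). Entries for 3 of the 5 members matched by name. miR-30b-5p and miR-30d-5p were not matched.
miR-30a-5p: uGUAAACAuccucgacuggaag
miR-30e-5p: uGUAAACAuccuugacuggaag
miR-30c-5p: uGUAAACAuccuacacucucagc
miR-30a-3p: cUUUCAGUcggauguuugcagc
miR-30e-3p: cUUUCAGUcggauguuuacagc
The seed GUAAACA occurred in 3 of the 2370 mature miRNA names of that table, which were these 3 members. It held no entry for miR-30b-5p or miR-30d-5p, so this count leaves them out and says nothing about their seeds. miR-30a-5p and miR-30e-5p differed at 1 of 22 positions, and each differed from miR-30c-5p at 5 of 22, all outside the seed. The 3p arms miR-30a-3p and miR-30e-3p are shown because one of them moved in these data. They also differed at 1 position and shared the seed UUUCAGU. How reads matching several miRNAs were counted is not given in the sources used here, so the split between miR-30a and miR-30e is uncertain.

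The family is made from 6 hairpins in 3 pairs. MIR30A (chr6:71403551-71403621, minus strand, GRCh38.p14) and MIR30C2 (chr6:71376960-71377031, minus strand) are 26519 bases apart and both lie in introns of the long non-coding RNA genes LINC00472 and AL136164.2 (GENCODE). MIR30E (chr1:40754355-40754446, plus strand) and MIR30C1 (chr1:40757284-40757372, plus strand) are 2837 bases apart in introns of NFYC, which encodes a subunit of the transcription factor NF-Y. Mature miR-30c-5p can come from MIR30C1 or MIR30C2 and its counts do not tell which. MIR30B and MIR30D are also neighbours on the same strand, 4268 bases apart.

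The 18 libraries used held 10017 to 225290 miRNA counts. S100 was deepest (198878 to 225290), followed by lysate (37453 to 157051), total exRNA (34427 to 61622), P100 (10017 to 27027) and P40 (10490 to 26096). The S100 library of replicate 1 held 48 counts, none from the family, and was left out. A floor of 3 counts corresponded to 13.3 CPM in the deepest library and 299 CPM in the shallowest, where CPM is a count per 1000000 miRNA counts of the library. Floors use the raw totals and all levels below the TMM-scaled ones. These floors and the intervals below cover counting error only. All 8 epithelial marker miRNAs were detected in every group (2.59% to 5.56% of counts over the lysate and S100 libraries). P40 replicate 3 and total exRNA replicate 2 each resembled the other more than any library of their own group. Blood cell marker miRNAs, a list of 8, summed to 0.0401% to 0.0439% of counts in lysate, 0.0900% to 0.232% in total exRNA, 0.273% to 0.343% in P40, 0.140% to 0.283% in P100 and 0.00799% to 0.0151% in S100. Of that list 4 were detected in lysate, 6 in total exRNA and 5 in each other group. miR-144-5p was at 0 everywhere, and the red cell miRNA miR-451a was at 0 in lysate. The part of blood-derived miRNA in the results was not tested.

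The family as a whole made up a small share of miRNA counts inside and outside the cells, and the member that led it was another one in S100. The 5 members together held 0.597% ± 0.0572 of counts in lysate (SD, n = 3), 1.23% ± 0.211 in total exRNA (n = 4), 0.952% ± 0.310 in P40 (n = 4), 0.665% ± 0.305 in P100 (n = 4) and 0.493% ± 0.105 in S100 (n = 3). In each of the 15 libraries outside S100, miR-30d-5p was the leading member, with 47.2% to 86.7% of the family's counts. In the 3 S100 libraries miR-30b-5p led instead, and miR-30d-5p held 10.9%, 17.7% and 18.7%.

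**Figure D1:**
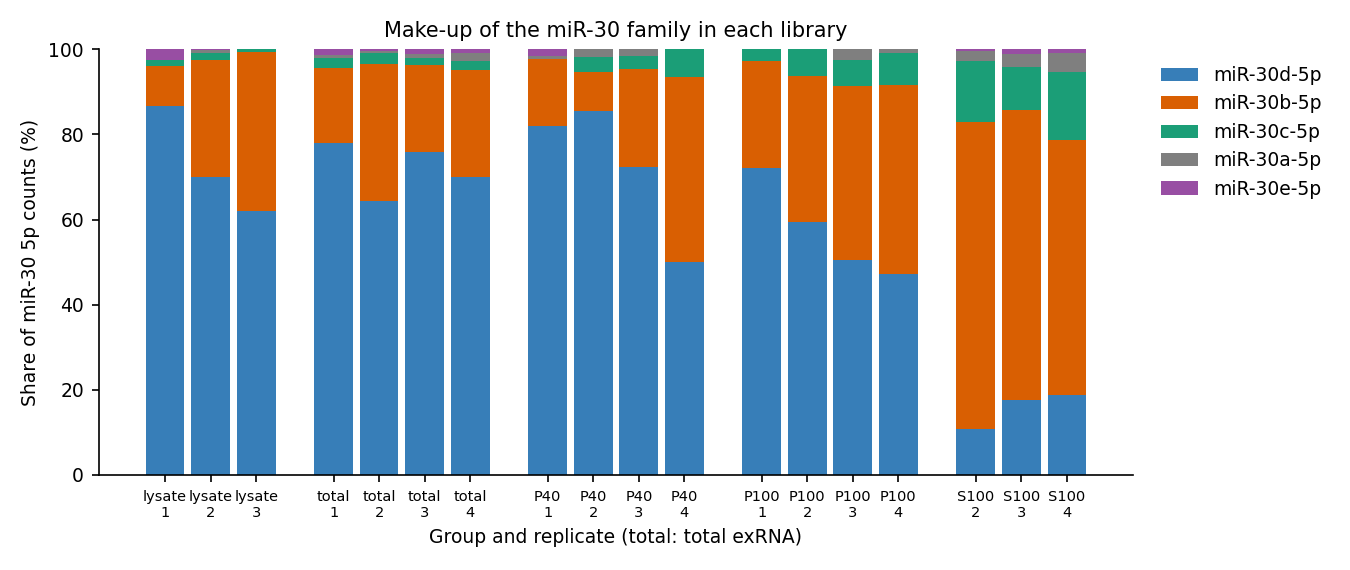
Share of miR-30 5p counts (%, y axis) taken by each member in each of the 18 libraries (x axis, group and replicate). miR-30d-5p (blue) makes up 47.2% to 86.7% of the bars outside S100 and 10.9% to 18.7% in S100, where miR-30b-5p (orange) and miR-30c-5p (green) take larger shares.

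By group, miR-30d-5p held a mean of 72.9% of the family in lysate, 72.0% in total exRNA, 72.5% in P40, 57.3% in P100 and 15.7% in S100. miR-30b-5p held 24.7%, 23.9%, 22.8%, 36.2% and 66.7% in the same order. miR-30c-5p held 1.26%, 2.18%, 3.27%, 5.62% and 13.6%. miR-30a-5p and miR-30e-5p together made up the remainder, with group means of at most 3.19% for miR-30a-5p (S100) and 0.923% for miR-30e-5p (total exRNA).

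miR-30d-5p was the most abundant member in lysate and was 4.93-fold to 10.7-fold lower in S100 than in any other group. This miRNA is known for raised levels in several carcinomas. Its lysate libraries (replicates 1 to 3) held 6064, 4757 and 4263 CPM. Total exRNA (replicates 1 to 4) held 7855, 8781, 7790 and 8308 CPM, P40 held 6547, 5042, 6453 and 5465 CPM, and P100 held 3155, 4420, 2551 and 5009 CPM. The 3 S100 libraries (replicates 2 to 4) held 649, 826 and 808 CPM, so every S100 library lay below every other library.

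Ordered by mean level, miR-30d-5p ran from total exRNA (8184 ± 460 CPM, SD, n = 4) through P40 (5877 ± 741, n = 4), lysate (5028 ± 931, n = 3) and P100 (3784 ± 1129, n = 4) to S100 (761 ± 97.3, n = 3). No neighbours among the first 4 groups in this order passed the test. In edgeR's quasi-likelihood test, adjusted over 227 miRNAs by Benjamini-Hochberg, P40 against total exRNA had an adjusted p of 0.244, P40 against lysate of 0.600 and P100 against lysate of 0.265. The step from P100 to S100 was a log2 fold change of -2.30 ± 0.31 (SE; edgeR adjusted p = 1.77e-06).

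Against the remaining groups, miR-30d-5p in S100 had log2 fold changes of -2.72 ± 0.32 (lysate; edgeR adjusted p = 2.42e-07), -2.95 ± 0.31 (P40; 8.10e-08) and -3.42 ± 0.32 (total exRNA; 1.69e-08). The last of these compares fractions that were both precipitated before Trizol. With no filter on low counts the values were smaller in size, at -1.99 (lysate), -2.29 (P40), -1.62 (P100) and -2.96 (total exRNA). miR-30d-5p was the single member lower in S100 in each of the 4 comparisons, where 30.0% (lysate), 27.8% (P40), 31.3% (P100) and 33.9% (total exRNA) of all tested miRNAs were lower. Being lower in S100 was thus common among all tested miRNAs. miR-30d-5p was also lower in P100 than in total exRNA (log2 fold change -1.12 ± 0.27, edgeR adjusted p = 0.00319), where 14.5% of tested miRNAs were lower in P100. These 5 calls held in every alternative setting and with each library left out in turn. All its total exRNA libraries lay above every lysate library, but the difference of 0.71 ± 0.28 on the log2 scale missed the threshold (edgeR adjusted p = 0.0566). It passed in 4 of 14 alternatives: library size scaling, a fit of only these 2 groups, DESeq2, and without lysate replicate 1.

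**Figure D2:**
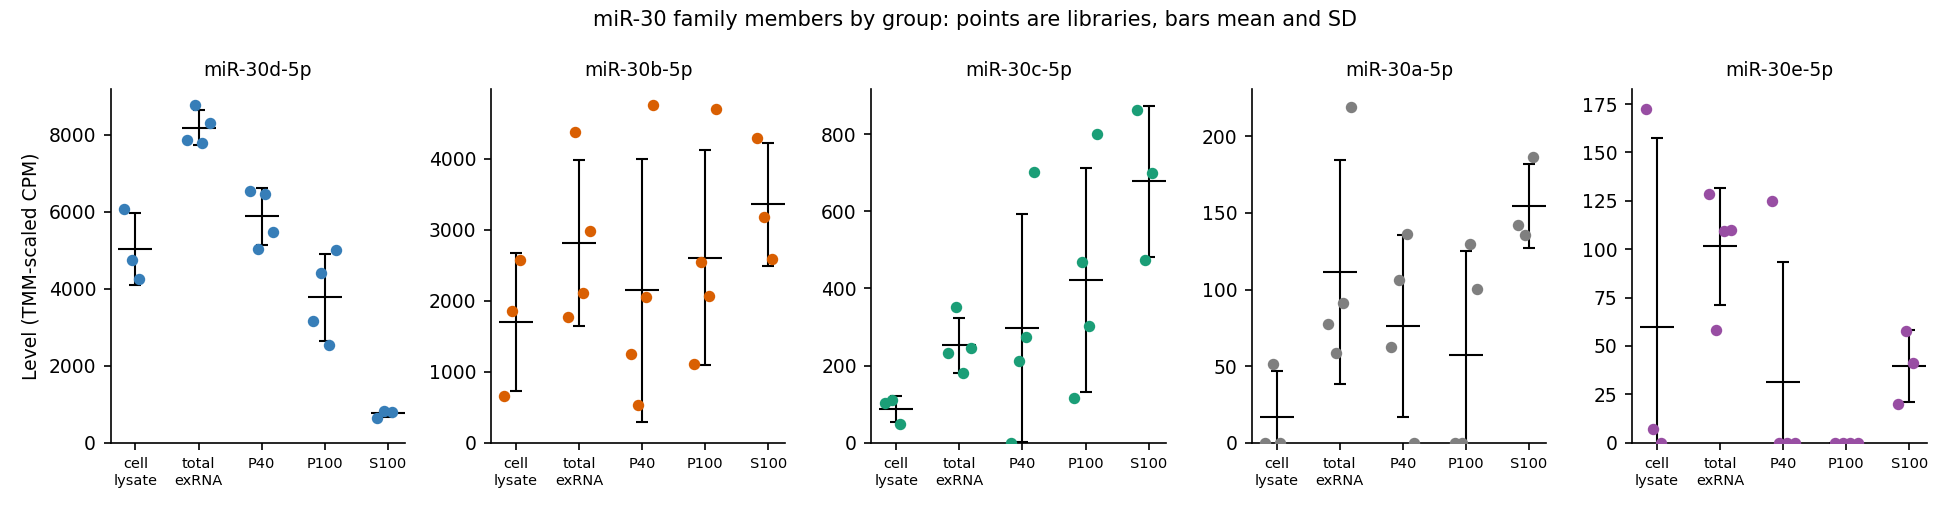
Level of each member (TMM-scaled CPM, y axis starting at 0 and scaled per panel) by group (x axis), with 1 point per library and the mean and SD as bars. miR-30d-5p drops to 649 to 826 CPM in S100, miR-30b-5p overlaps widely between groups, and miR-30c-5p is lowest in lysate.

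miR-30b-5p, whose hairpin neighbours that of miR-30d-5p, passed the test in none of the 10 comparisons. Its 10 unadjusted p-values were all above 0.05, and DESeq2 called it in 1 comparison, as higher in S100 than in lysate, where it called 38.8% of all miRNAs higher. It held 655, 1863 and 2577 CPM in the lysate libraries, 1777, 4383, 2111 and 2989 CPM in total exRNA, 1247, 531, 2049 and 4762 CPM in P40, 1110, 2550, 2075 and 4708 CPM in P100, and 4299, 3184 and 2593 CPM in S100. The libraries of a group were far apart: the highest was 8.97 times the lowest in P40, 4.24 times in P100 and 3.94 times in lysate.

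The order of mean levels for miR-30b-5p was S100 (3359 ± 866 CPM, n = 3), total exRNA (2815 ± 1164, n = 4), P100 (2611 ± 1521, n = 4), P40 (2147 ± 1850, n = 4) and lysate (1698 ± 972, n = 3), and no neighbours in it passed the test. On the TMM scale S100 lay just above every lysate library (2593 against 2577 CPM at the nearest). On raw shares they overlapped, with 0.229% in S100 replicate 4 and 0.245% in lysate replicate 3. The log2 fold change of S100 over lysate was 0.96 ± 0.60 (edgeR adjusted p = 0.173). Over total exRNA it was 0.25 ± 0.55 (edgeR adjusted p = 0.689). The difference of S100 from lysate passed the threshold with no filter on low counts, in DESeq2 and without lysate replicate 3, and that from P40 with no filter and without P40 replicate 4.

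miR-30c-5p was scarce in the cells and higher in S100 and P100. It was counted 3, 15 and 3 times in the lysate libraries, which is 103, 110 and 47.7 CPM. Total exRNA held 232, 351, 182 and 247 CPM, P40 held 0, 212, 273 and 703 CPM, P100 held 117, 468, 303 and 801 CPM, and S100 held 862, 473 and 699 CPM. Every S100 library lay above every lysate and total exRNA library, and the lysate and P100 libraries did not overlap. P40 replicate 1, with 14405 counts, had none of this miRNA, which allows a level of up to 208 CPM.

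For miR-30c-5p, the log2 fold change of S100 over lysate was 2.93 ± 0.71 (678 ± 196 CPM, n = 3, against 86.9 ± 34.1, n = 3; edgeR adjusted p = 0.00107). It was the single member higher in S100 than in lysate, where 32.2% of tested miRNAs were higher. The value was 3.52 without lysate replicate 2 and 3.62 with no filter on low counts. P100 exceeded lysate by 2.17 ± 0.74 (422 ± 291 CPM, n = 4; edgeR adjusted p = 0.0239), again as the single member, with 16.7% of tested miRNAs higher. This call was lost without lysate replicate 3 (2.04, adjusted p = 0.0628), P100 replicate 2 (2.06, 0.0579) or P100 replicate 4 (1.77, 0.0754). In a fit of only these groups miR-30c-5p did not pass the filter on low counts and was not tested.

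S100 exceeded total exRNA (253 ± 70.9 CPM, n = 4) in miR-30c-5p by a log2 fold change of 1.40 ± 0.59 (edgeR adjusted p = 0.0428), where 29.5% of tested miRNAs were higher in S100. With the batch number as a block the same difference was 1.14 ± 0.60 (edgeR adjusted p = 0.107), past the threshold no longer. It was likewise lost with library size scaling (1.26, adjusted p = 0.0716) and without S100 replicate 2 (1.51, 0.0604), total exRNA replicate 1 (1.39, 0.0772) or total exRNA replicate 3 (1.27, 0.106). Without P40 replicate 3 and total exRNA replicate 2 it was 2.02. The order of means was S100, P100, P40 (297 ± 295 CPM, n = 4), total exRNA and lysate, and no neighbours in it passed the test. S100 against P40 had a log2 fold change of 1.25 ± 0.64 (edgeR adjusted p = 0.109) and passed the threshold in 6 of 15 alternatives, among them the one without P40 replicate 3 and total exRNA replicate 2 (1.69, adjusted p = 0.0408).

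In the other 4 comparisons no member passed edgeR's test in either direction. The share of all tested miRNAs called there was 35.2% for total exRNA against lysate, 26.9% for P40 against lysate, 11.5% for P40 against total exRNA and 4.85% for P100 against P40. At an unadjusted p below 0.05, 2 members were higher in total exRNA than in lysate, 1 was higher in P40 than in lysate, 1 was lower in P100 than in P40, and 0 differed between P40 and total exRNA. The shares above are at an adjusted p. The share of all miRNAs at the unadjusted cut was not computed, so these counts of members have no background to be set against. DESeq2 called 2 members higher in total exRNA than in lysate, where it called 22.0% of all 227 miRNAs higher, and 1 higher in P40 than in lysate (21.1% of all). It called 1 lower in P40 than in total exRNA (11.9% of all) and 0 in P100 against P40 (4.41% of all higher, 3.08% lower). For P100 against P40, the comparison of the 2 pellets, the log2 fold changes were -0.64 ± 0.27 for miR-30d-5p, 0.28 ± 0.55 for miR-30b-5p and 0.49 ± 0.68 for miR-30c-5p.

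**Figure D3:**
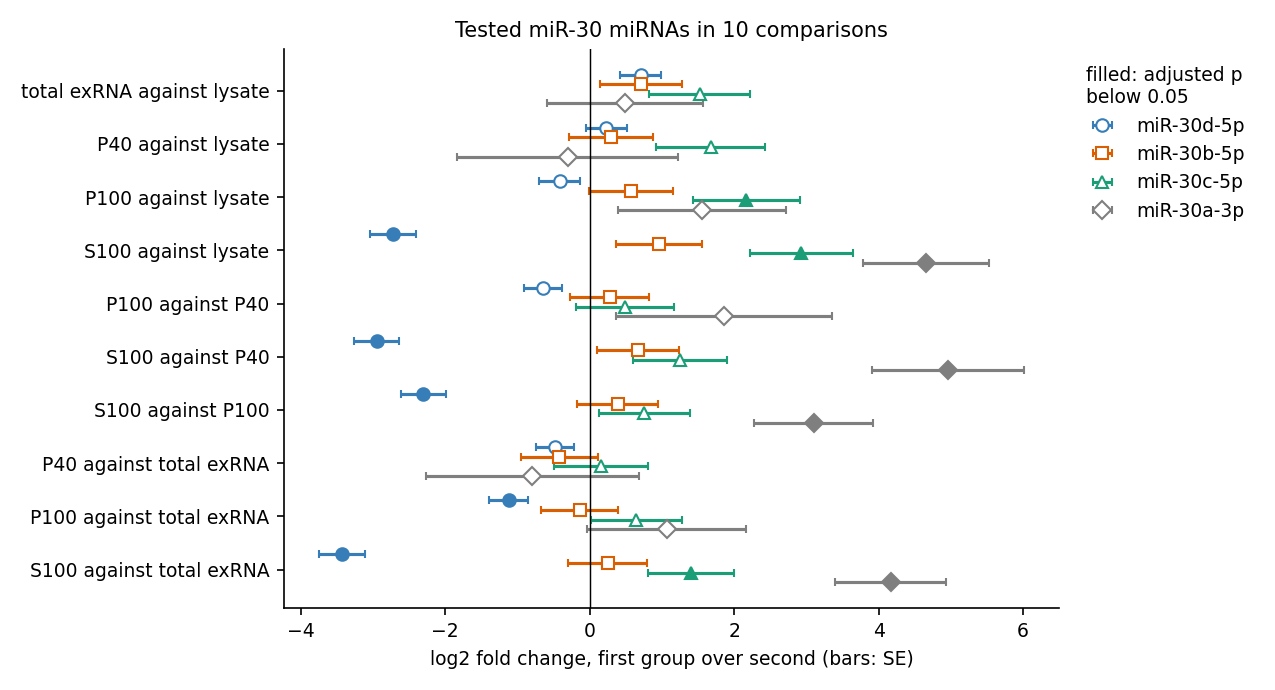
log2 fold change with SE (x axis) of the 3 tested members and of miR-30a-3p in the 10 comparisons (y axis), with filled symbols where the edgeR adjusted p was below 0.05. In the 4 comparisons of S100, miR-30d-5p lies between -3.42 and -2.30 while the other 3 miRNAs lie above 0.

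Because 2 members of a library share its depth and scaling, the ratio of their counts depends on neither, apart from counting error. The count of miR-30b-5p over that of miR-30d-5p was 0.108, 0.392 and 0.604 in the lysate libraries, 0.226 to 0.499 in total exRNA, 0.105 to 0.871 in P40 and 0.352 to 0.940 in P100. In S100 it was 6.62, 3.86 and 3.21. The highest of the 15 libraries outside S100 was 0.940 and the lowest in S100 was 3.21.

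On the log2 scale, with 0.5 added to each count, the ratio was higher in S100 by 3.87 than in lysate (exact two-sided permutation p = 0.10, n = 3 and 3), by 3.96 than in P40, by 2.78 than in P100 and by 3.74 than in total exRNA (exact permutation p = 0.0571 each, n = 3 and 4). These are the smallest p-values that the exact test can give at these group sizes, so no such comparison could reach 0.05. miR-30c-5p over miR-30d-5p differed in the same direction, by 5.57 (lysate), 4.67 (P40), 3.10 (P100) and 4.79 (total exRNA). P40 replicate 1 had 0 counts of miR-30c-5p, so the value against P40 rests in part on the added 0.5 and on depth. Over the 100 ratio tests (10 pairs of members in 10 comparisons), 1 had an unadjusted p below 0.05. At these group sizes no p adjusted over the 100 tests could fall below 0.05.

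**Figure D4:**
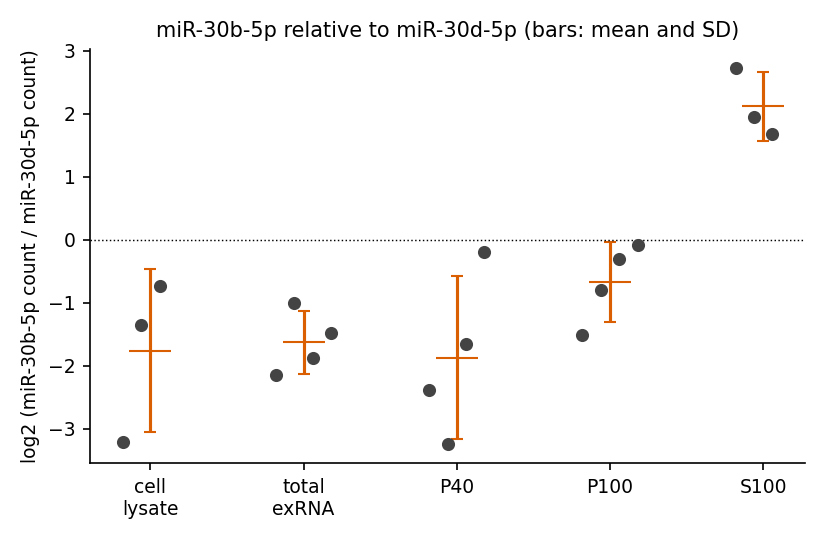
log2 of the miR-30b-5p count over the miR-30d-5p count (y axis) in each library by group (x axis), with mean and SD bars. All 3 S100 libraries lie above 0, at count ratios of 3.21 to 6.62, and all 15 other libraries lie below it, at ratios of 0.105 to 0.940.

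miR-30a-5p, a member known to restrain autophagy through BECN1, did not pass the filter on low counts. It was counted 0, 7 and 0 times in lysate, 3, 4, 5 and 8 times in total exRNA, 1, 2, 4 and 0 times in P40, 0, 0, 3 and 1 times in P100, and 28, 33 and 36 times in S100. The S100 level was 155 ± 27.7 CPM (n = 3) and that of total exRNA 112 ± 73.1 CPM (n = 4), with overlapping libraries. Over summed counts, S100 was 5.62 times lysate (exact 95% counting interval 2.62 to 14.3) and 1.39 times total exRNA (0.850 to 2.37). With no filter on low counts the difference of S100 from lysate was 3.20 ± 0.94 on the log2 scale (edgeR adjusted p = 0.00554). In that setting 12.6% of all miRNAs were higher, and the median log2 fold change of all miRNAs was 1.03. A fit of only these 2 groups gave a smaller value, 2.39 ± 0.78 (edgeR adjusted p = 0.0171), with 33.6% of tested miRNAs higher.

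miR-30e-5p had the fewest counts of the members when all libraries were summed, although miR-30a-5p had the lower mean level in lysate (17.0 against 59.9 CPM). It was counted 5, 1 and 0 times in lysate, 5, 4, 6 and 4 times in total exRNA, 2, 0, 0 and 0 times (replicates 1 to 4) in P40, and 4, 14 and 8 times in S100. P100 had 0 of 78348 counts, which allows a share of up to 0.00383%. Against that floor of 3 counts over the group, it was at least 2.70-fold lower in P100 than in total exRNA (19 of 183648 counts). With no filter on low counts, that difference had an edgeR adjusted p of 0.0901.

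The 3p arms of the same hairpins are no members and did not all follow their 5p partners. miR-30a-3p was counted 0, 3 and 1 times in lysate, 0, 3, 2 and 0 times in total exRNA, 0, 1, 0 and 0 times in P40, 0, 3, 1 and 0 times in P100, and 104, 72 and 110 times in S100. The S100 level was 464 ± 147 CPM (n = 3). With 0 to 3 counts in each library outside S100, miR-30a-3p passed the filter on low counts only through S100. That filter favoured a call as higher in S100, so the tests below are no independent support for it. The log2 fold change of S100 over lysate was 4.66 ± 0.87 (edgeR adjusted p = 7.82e-05). Over P100 it was 3.10 ± 0.83 (edgeR adjusted p = 0.00265) and over total exRNA 4.17 ± 0.77 (edgeR adjusted p = 6.62e-05). Against P40, with 1 count in 70031, the ratio of summed counts was 31.2 (exact 95% counting interval 5.55 to 1235), and the edgeR adjusted p was 0.000396. Without replicate 2 of the other group the fitted values were 5.44 (lysate), 4.43 (P100) and 4.85 (total exRNA). Without P40 replicate 2 the value was 8.02, but no P40 count was left and it is no bound. With no filter the values were 5.30 (lysate) and 3.72 (P100), and without P40 replicate 3 and total exRNA replicate 2 that against total exRNA was 5.14. Over all tested miRNAs, 32.2% were higher in S100 than in lysate, 25.1% than in P40, 28.6% than in P100 and 29.5% than in total exRNA. The floor of 3 counts in the P40 libraries was 115 to 286 CPM, so a count of 0 there still allows a level up to that floor.

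In S100 the 3p arm made up 74.7% of the counts of the MIR30A hairpin (286 of 3p, 97 of 5p; exact 95% binomial interval 70.0% to 79.0%). In its libraries the share was 78.8%, 68.6% and 75.3%. In total exRNA it was 20.0% (5 of 3p, 20 of 5p; 6.83% to 40.7%), with the 5p arm ahead in all 4 libraries. The counts of lysate (36.4%, 10.9% to 69.2%) and P100 (50.0%, 15.7% to 84.3%) were too few to place the share.

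The MIR30B hairpin showed another pattern, with the highest scaled levels of its 3p arm in lysate. miR-30b-3p was counted 9, 102 and 21 times in the lysate libraries, or 310, 745 and 334 CPM, and 16 times in all of total exRNA, 5 in P40, 11 in P100 and 32 in S100. Its mean was 463 ± 245 CPM in lysate (n = 3), 72.7 ± 44.2 in total exRNA (n = 4), 66.2 ± 59.0 in P40 (n = 4), 136 ± 84.7 in P100 (n = 4) and 51.8 ± 26.9 in S100 (n = 3). On the TMM scale every lysate library lay above all 15 others. On raw shares they overlapped, with lysate replicate 1 at 0.0240% on 9 counts and P100 replicate 2 at 0.0258%. The 3p arm held 23.2% of this hairpin's counts in lysate (exact 95% binomial interval 19.8% to 26.9%) against 2.62% in total exRNA (1.51% to 4.22%), 3.21% in P40 (1.05% to 7.32%), 5.95% in P100 (3.01% to 10.4%) and 1.48% in S100 (1.02% to 2.09%).

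Per library, the 3p share of MIR30B was 32.1%, 28.6% and 11.5% in lysate and at most 4.17% in total exRNA and 9.09% in P100. P40 replicate 2 reached 16.7% on 12 counts, so lysate and P40 overlapped. miR-30b-3p did not pass the filter on low counts. With no filter it was lower than in lysate by a log2 fold change of -2.35 ± 0.73 in total exRNA (edgeR adjusted p = 0.0252), -2.74 ± 0.87 in P40 (0.0310) and -2.47 ± 0.75 in S100 (0.00718), and in P100 by -1.65 ± 0.77 without passing (0.249). Of all miRNAs in that setting, 2.01% were lower in total exRNA, 2.11% in P40 and 5.56% in S100. The floor of 3 counts, on raw totals, reached 286 CPM in P40 and 299 CPM in P100. Before TMM scaling, the lowest lysate library (replicate 1, 0.0240% of counts) lay below both.

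**Figure D5:**
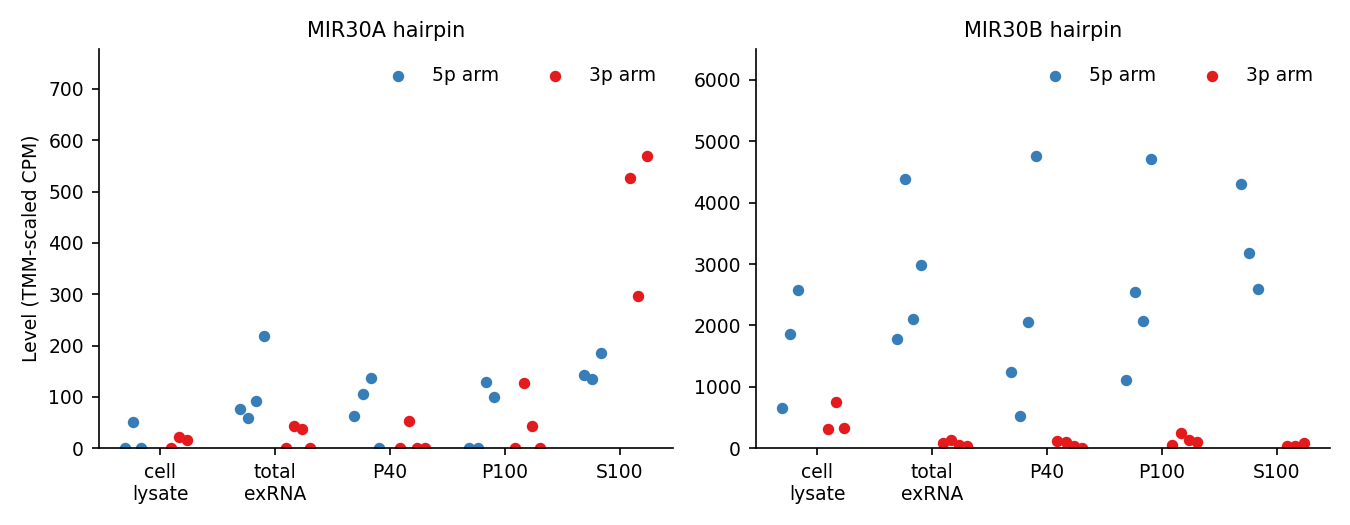
Level (TMM-scaled CPM, y axis) of the 5p arm (blue) and 3p arm (red) of the MIR30A and MIR30B hairpins in each library by group (x axis). For MIR30A the 3p arm exceeds the 5p arm in all 3 S100 libraries, and for MIR30B the 3p arm is highest in the 3 lysate libraries, at 310 to 745 CPM.

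At MIR30E the 3p arm was the more frequent product in all 5 groups by summed counts, with 86.7% in lysate (39 of 3p, 6 of 5p), 73.2% in total exRNA (52 and 19), 87.5% in P40 (14 and 2) and 72.0% in S100 (67 and 26), while P100 had 5 counts of 3p and 0 of 5p. Single libraries varied: total exRNA replicate 2 held 33 of the 52 counts of 3p in that group. The 5p arm was ahead in total exRNA replicate 3 (6 against 5) and in P40 replicate 1 (2 against 1). miR-30e-3p passed edgeR's test in no comparison, and 1 had an unadjusted p below 0.05 (P100 against total exRNA). At MIR30D the 5p arm dominated: the 3p arm held 0.455% of counts in lysate and 4.90% in S100 (exact 95% binomial interval 3.20% to 7.15%). The S100 libraries had 3, 1 and 21 counts of miR-30d-3p, or 2.29%, 0.495% and 11.9%, so replicate 4 carried most of them, and the share was 1.20% without it (4 of 333 counts) and 7.79% without replicate 3. With no filter on low counts, miR-30d-3p in S100 against lysate had a log2 fold change of 1.65 ± 1.25 (edgeR adjusted p = 0.434). miR-30c-1-3p was counted 23 times in lysate and 6 times in S100, a ratio over summed counts of 0.106 (exact 95% counting interval 0.0352 to 0.267). Between libraries, with no filter, the log2 fold change was -2.27 ± 1.17 and did not pass (edgeR adjusted p = 0.193). miR-30c-2-3p was counted at most 11 times in any group.

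Across the 18 libraries the miRNAs most like each tested member in log2 CPM were different ones. miR-30d-5p was closest to miR-16-5p (Pearson r = 0.91), miR-200c-3p (0.85) and miR-371a-5p (0.83), miR-30b-5p to miR-335-5p (0.82), miR-24-3p (0.72) and miR-9-3p (0.70), and miR-30c-5p to miR-215-5p (0.78), miR-193b-3p (0.72) and miR-373-5p (0.72). miR-30a-3p was closest to miR-1228-5p (0.85), miR-22-3p (0.81) and miR-103a-2-5p (0.80). Between members, r was 0.61 for miR-30b-5p and miR-30c-5p, -0.23 for miR-30b-5p and miR-30d-5p, and -0.44 for miR-30c-5p and miR-30d-5p. These values describe libraries that share groups and depth, with S100 set apart from the rest.

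Of 10 other miRNAs that are widespread in adult tissue (let-7, miR-16, miR-24, miR-26, miR-29 and miR-101 members), 2 were higher and 4 lower in S100 than in lysate, with a median log2 fold change of -0.93 against -0.04 over all tested miRNAs. Of all tested miRNAs, 32.2% were higher and 30.0% lower there. The 3 tested miR-30 members had 1 higher, 1 lower and a median of 0.96 in that comparison. With 3 members, that median is the value of miR-30b-5p, which did not pass, between 2.93 for miR-30c-5p and -2.72 for miR-30d-5p. It therefore describes no shift of the family. Against total exRNA the widespread list had 2 higher and 4 lower in S100 (median -1.24, against -0.34 over all tested miRNAs). Of all tested miRNAs, 29.5% were higher and 33.9% lower in S100 there. The members again had 1 higher and 1 lower, and their median of 0.25 was that of miR-30b-5p, which did not pass.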

How the data were processed

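The authors deposited raw counts per mature human miRNA in 1 file per library. Absent names were set to 0. The submitters' processing notes name cutadapt 1.16, FastQC, Bowtie2 and GRCh38. The role of each tool, its parameters and the miRNA annotation are not given in the sources used here. The labels' protocols name the RealSeq-AC kit and single-end reads of 50 bases.

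The members and lists were chosen with earlier results of these data known. Named miRNAs are the 5 members, the 6 3p arms of their hairpins and, for each tested one, the 3 most correlated miRNAs. S100 replicate 1 had fewer than 100 detected miRNAs and was not used. The analysis ran in R 4.3.3 with edgeR 4.0.16. filterByExpr (minimum count 10, minimum total 15) kept 227 miRNAs with 98.5% to 99.1% of each library's counts. TMM scaled the libraries, and 1 robust quasi-likelihood fit of the 5 groups gave 10 comparisons (biological coefficient of variation 0.419), called at an adjusted p below 0.05. Higher and lower refer to scaled shares of a library, not to amounts. CPM are TMM-scaled, and correlations used log2 CPM with a prior count of 2. Ratios of members were compared by exact permutation tests (scipy 1.17.1). The fit was tested on simulated data.

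The labels give each sample a batch number equal to its replicate number, which pairs samples by label. Over 32 pairs of same-numbered libraries from different groups, the correlation of deviations from group means ran from -0.57 to 0.31 (median -0.00188), with 7 above 0.1. Alternatives were library size scaling, TMMwsp, no filter, the block, a fit of only the compared groups, all 19 libraries, DESeq2 1.42.0, each library left out and, chosen after seeing the data, leaving out the 2 libraries closest to another group. Hairpins were placed on GENCODE genes by position.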

Additional observations from a re-analysis of the deposited data

Results flagged for a closer look

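In P40, miR-30e-5p made up 1.56% of the family's counts in replicate 1 and 0 in the 3 other libraries, so the highest library stood apart from the rest of its group. The share rests on 2 counts. With 0 in the 3 other libraries, any count in the remaining one sets it apart by this rule. Of 38 groups of values examined this way 1 stood apart. Chance sets apart about 1 in 20 groups of values without ties, a rate that does not hold for tied values of 0 such as these.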

How the results depend on the processing

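In every alternative that gave a value, the direction and call held for miR-30d-5p (lower in S100 than in each other group and lower in P100 than in total exRNA), for miR-30c-5p in S100 against lysate and for miR-30a-3p in S100 against each other group. miR-30a-3p entered the filtered fits only through its S100 counts, which favours those calls. The median log2 fold change of all tested miRNAs moved by -0.25 (total exRNA against lysate, without total exRNA replicate 2) to 0.70 (S100 against lysate, no filter), and by 0.33 to 0.45 for S100 against lysate when 1 of its libraries was left out, so fold sizes in S100 move with the scaling. miR-30d-5p in S100 against lysate ranged from -2.80 to -1.99, with the smallest size where the median moved most.

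The number of members called higher changed as follows, with the share of all miRNAs called higher under the same setting in parentheses. Library size scaling gave 1 in total exRNA against lysate (20.7%), 1 in P40 against lysate (20.7%) and 0 in S100 against total exRNA (28.6%). No filter gave 3 in S100 against lysate (12.6% of 1043) and 2 in S100 against P40 (9.68%). The fit of 2 groups gave 2 in total exRNA against lysate (19.6%), 2 in S100 against lysate (33.6%) and 0 in P100 against lysate (21.4%), where miR-30c-5p did not pass the filter and was not tested. DESeq2 gave 2, 1, 2 and 1 in total exRNA (22.0%), P40 (21.1%) and S100 (38.8%) against lysate and in S100 against P40 (30.0%), and called 1 member lower in P40 than in total exRNA (11.9% lower). All 19 libraries (28.6%), or leaving out the 2 libraries closest to another group (30.5%), gave 1 in S100 against P40. Leaving out 1 library gave 0 to 1 in P100 (13.5% to 17.5%), P40 (9.62% to 15.4%) and total exRNA (13.4% to 17.0%) against lysate and in S100 against total exRNA (27.0% to 31.9%), 0 to 2 in S100 against P40 (22.7% to 30.2%) and 1 to 2 in S100 against lysate (32.6% to 37.1%). Beyond the untested member, the cause was not tested.

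With the batch number as a replicate block, 0 members were higher in S100 than in total exRNA (28.6% of all), where miR-30c-5p had a log2 fold change of 1.14. The block changed no other call of the members or of miR-30a-3p in S100. No value that changed sign was called. miR-30c-5p in P40 against total exRNA was -0.10 with no filter and -0.56 to 0.54 with 1 library left out. miR-30b-5p in P100 against total exRNA was 0.27 without the 2 libraries closest to another group, and with 1 library left out it ran from -0.54 to 0.20 there, from -0.36 to 0.75 in P40 against lysate and from -0.11 to 1.00 in P100 against P40. Depth limits miR-30a-5p, miR-30e-5p and most 3p arms in P40 and P100.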
